A study of Mus musculus with 2 samples.

Results

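Brg1 occupancy was examined at 6 genes of the fibroblast extracellular matrix, Col1a1, Col1a2, Col3a1, Col5a2, Fn1 and Sparc. They were chosen by name as matrix genes of fibroblasts, with earlier results of these data known. The comparisons with the genome below therefore do not rest on a choice made blind to the data. Each gene was taken with a preset mm9 interval at the ends of the gene, rounded to 1 kb, widened by 20 kb on each side. The widened intervals of Col3a1 and Col5a2, which are neighbours on chromosome 1, overlapped and were split at the midpoint, at 45419000. The 6 gene regions cover 542 kb. They held 5341 of the 13581267 tags (0.0393%) of a Brg1 chromatin immunoprecipitation (ChIP) library and 1464 of the 5778620 tags (0.0253%) of an input library. Both libraries came from primary embryonic fibroblasts of wild-type mice of mixed C57BL/6 and 129 background, taken at E13.5. Nuclear chromatin was digested with micrococcal nuclease, an enzyme that cuts between nucleosomes, and then sonicated briefly. The ChIP library was made with a rabbit polyclonal antibody against Brg1 and the input without an antibody. The autosomal mean per kb was 5.35 tags in the ChIP and 2.27 in the input. There was 1 library per group, so no value below has a replicate check, every 95% interval covers counting error only, and the tests compare these libraries and not conditions. RNA was not measured, so neither the level of these genes in the cells nor any marker of cell type is known from these data.

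Brg1 is the ATPase of the Swi/Snf complex, which uses ATP to slide and evict nucleosomes at promoters and enhancers. The matrix that fibroblasts secrete is built mainly of fibrillar collagens, in which chains wind into triple helices that assemble into fibrils, and of glycoproteins that bind cells and fibrils. Col1a1 and Col1a2 encode the chains of type I collagen, the main fibril of skin, tendon and bone. Col3a1 encodes the chain of type III collagen, found in pliable tissue such as vessel wall. Col5a2 encodes a chain of type V collagen, which regulates fibril assembly. Fn1 encodes fibronectin, which links integrins to the matrix, and Sparc encodes a secreted collagen-binding glycoprotein also called osteonectin.

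All 6 gene regions were enriched for Brg1 over input. The ChIP/input ratio, scaled by autosomal totals at 2.36 ChIP tags per input tag, was highest at Col1a1, where 741 ChIP tags against 162 input tags gave 1.94 (exact conditional 95% interval 1.64 to 2.32). Col1a2 held 857 against 229, a ratio of 1.59 (1.37 to 1.85). Col3a1 held 584 against 159, a ratio of 1.56 (1.31 to 1.87). These 3 collagen genes were followed by Fn1, where 1118 against 308 gave 1.54 (1.36 to 1.75), and Col5a2, where 1309 against 375 gave 1.48 (1.32 to 1.67). Sparc was lowest, with 732 against 231 and a ratio of 1.34 (1.16 to 1.57). The 95% interval lay above 1 in all 6. Among autosomal tiles of the same length it did so in 16.6% of tiles as long as the Col1a1 region, 18.3% for Col1a2, 17.8% for Col3a1, 20.1% for Fn1, 22.5% for Col5a2 and 17.6% for Sparc. The median tile was at 0.912 for the length of Col1a1 and at 0.931 for that of Col5a2. A ratio at least as high as that of the gene was found in 0.504% of tiles for Col1a1, in 2.40% for Col1a2, 3.03% for Col3a1, 2.27% for Fn1 and 2.33% for Col5a2, and in 8.64% for Sparc. In the order of the 6 genes no neighbours differed beyond counting error: the largest step, Col1a1 over Col1a2, was 1.22 (0.971 to 1.54). The ends of the order did differ, with Col1a1 over Sparc at 1.44 (1.15 to 1.82). That pair was picked as the highest and lowest, which its 95% interval does not allow for.

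The ratio reflected a higher ChIP density more than a lower input. Per kb of gene region, ChIP tags stood between 1.52 times (Col5a2) and 2.39 times (Col1a1) the autosomal mean. Input tags stood between 0.987 times (Col3a1) and 1.52 times (Sparc), so that no region but Col3a1 was below the mean of the input. Each region was also set against its surroundings, the 200 kb upstream and the 200 kb downstream of it summed, a comparison added after the data were seen. The region at Col1a1 was at 1.69 times the ratio of its surroundings (1.40 to 2.04), that at Col1a2 at 1.56 times (1.32 to 1.84), and the other 4 at 1.19 to 1.38 times, with 95% intervals above 1. Col3a1 and Col5a2 share these surroundings, and the side upstream of Col5a2, alone at 1.53 (1.36 to 1.71), was not below the Col5a2 region. With 100 kb on either side the values were 1.18 at Col3a1 (0.948 to 1.46) and 1.12 at Col5a2 (0.945 to 1.32), and these 95% intervals no longer excluded 1. How often other regions exceed their surroundings was not tested.

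**Figure D1:**
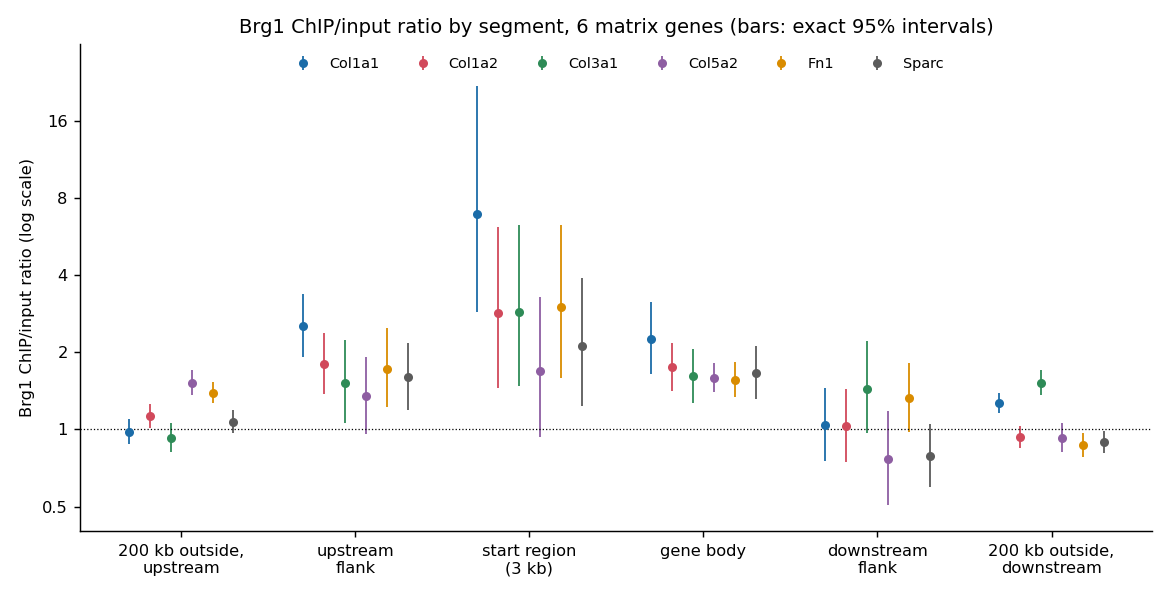
Brg1 ChIP/input ratio (log axis) for each of the 6 genes in 6 segments ordered in the direction of transcription; points are ratios and bars exact 95% intervals. The points of the start regions and upstream flanks lie above 1 at every gene, with 95% intervals that include 1 only at Col5a2, whereas the downstream flanks range from 0.768 to 1.45 with 95% intervals that all include 1.

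Enrichment was uneven along each gene. The upstream flank exceeded the downstream flank at all 6 genes, in a comparison also added after the data were seen, with a median ratio between them of 1.75. At Col1a1 the upstream flank had 357 ChIP tags against 60, which gives 2.52 (1.92 to 3.38), and the downstream flank 135 against 55, a ratio of 1.04 (0.756 to 1.45). The upstream flank was therefore at 2.42 times the downstream flank (1.56 to 3.75). The same comparison gave 2.03 at Sparc (1.34 to 3.08), 1.75 at Col5a2 (1.004 to 3.04) and 1.75 at Col1a2 (1.13 to 2.69). At Fn1 it was 1.30 (0.809 to 2.11) and at Col3a1 1.05 (0.597 to 1.85), where the flanks were not distinguishable at this depth. The downstream flanks of Col3a1 and Col5a2 were 12 kb long because of the split. Summed over the 6 genes, the downstream flanks were at 1.04 (0.908 to 1.18) and the upstream flanks at 1.79 (1.58 to 2.03). The gene body stood above its pooled flanks by 1.47 times at Sparc (1.08 to 2.01) and 1.46 times at Col5a2 (1.09 to 1.96). At the other 4 genes this ratio was between 1.05 and 1.24 and its 95% interval included 1. How often other genes show such differences between flanks, or between body and flanks, was not tested.

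Inside the gene bodies the ratio was highest in the part nearest the start. With each body cut into 3 parts of equal length, again after the data were seen, in the first part it ranged from 1.93 at Fn1 to 2.81 at Col1a1, and in the last part from 1.05 at Sparc to 1.73 at Col1a1. At Sparc the first part held 183 ChIP tags against 33 and the last part 87 against 35, a difference of 2.23 times (1.25 to 3.97). At Col3a1 the counts were 195 against 30 and 80 against 27, a difference of 2.19 times (1.17 to 4.08). Col5a2, at 1.61 times (1.17 to 2.23), and Fn1, at 1.59 times (1.07 to 2.35), also had a first part above the last beyond counting error. At Col1a1 the difference was 1.63 times (0.684 to 3.76) and at Col1a2 1.49 times (0.855 to 2.59), and neither excluded 1. How often the first part exceeds the last at other genes was not tested. The middle part of Col3a1 held 60 ChIP tags against 31, a ratio of 0.821 (0.524 to 1.31), the lowest of the 18 parts. At Col1a1 the middle part was still at 1.98 (1.12 to 3.73), with 70 tags against 15.

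**Figure D2:**
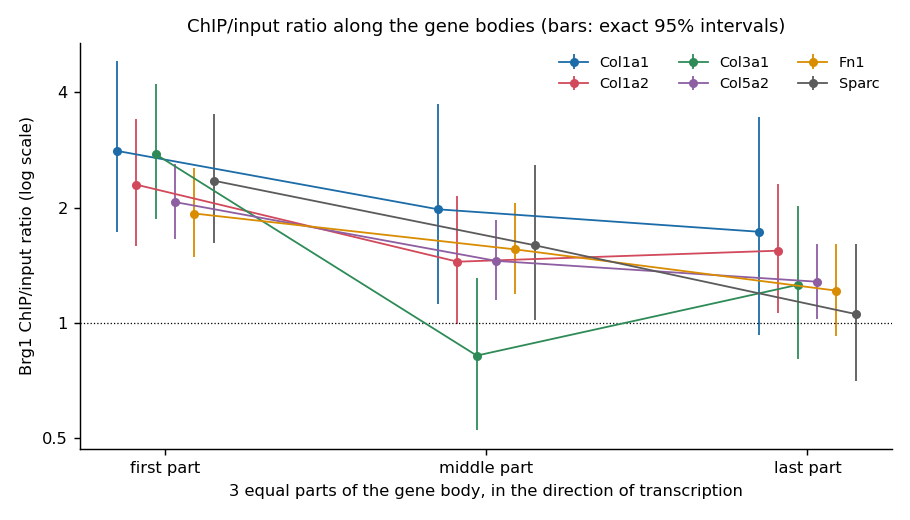
Brg1 ChIP/input ratio (log axis) in the first, middle and last of 3 equal parts of each gene body, with exact 95% intervals as bars and 1 line per gene. All 6 lines are highest in the first part, between 1.93 and 2.81, and end between 1.05 and 1.73.

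ChIP tags were dense in the start regions, defined as 1 kb outside to 2 kb inside the rounded end at which each gene begins. They held 56 ChIP tags at Col5a2, 67 at Col1a2, 68 at Col3a1, 78 at Fn1, 80 at Sparc and 82 at Col1a1, which is 3.49 to 5.11 times the autosomal mean per kb. The input held 14, 10, 10, 11, 16 and 5 tags in the same order of genes. ChIP counts were thus alike among the 6 genes, and the input varied more in proportion, from 0.735 times its autosomal mean at Col1a1 to 2.35 times at Sparc. The ratio was 6.96 at Col1a1 (2.86 to 22.0), a value that rests on 5 input tags. It was 3.01 at Fn1 (1.59 to 6.28), 2.89 at Col3a1 (1.48 to 6.29), 2.84 at Col1a2 (1.45 to 6.20) and 2.12 at Sparc (1.23 to 3.89). At Col5a2 it was 1.70 (0.933 to 3.30). The 95% interval lay above 1 in 5 of 6 start regions, against 4.91% of autosomal 3 kb tiles, whose median ratio was 0.919. Of these tiles, 0.322% were at or above the value of Col1a1, 3.64% at or above that of Fn1 and 16.5% at or above that of Col5a2. No neighbours in the order of start regions differed beyond counting error. Its ends, Col1a1 over Col5a2, were at 4.1 times (1.29 to 15.3), a pair picked as the highest and lowest. The values depended on the width of the region. In 2 kb centred on the start end the ratio was 1.89 at Col3a1 (0.901 to 4.42) and 2.07 at Sparc (0.953 to 5.13), which no longer excluded 1, while Col5a2 was at 2.23 (1.03 to 5.49) and Fn1 at 5.30 (1.95 to 20.2). In 5 kb, from 2 kb outside to 3 kb inside, Col1a1 was at 3.53 (2.09 to 6.35). Relative to the rest of its gene body, the start region was higher at Col1a1 by 3.73 times (1.40 to 12.5) and at Fn1 by 1.98 times (1.02 to 4.20). At the other 4 genes this ratio lay between 1.06 and 1.97, with 95% intervals that included 1. The same ratio was not taken at other genes.

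RefSeq promoter sequences matched 3 of the 6 genes, and are shown because ChIP tags were dense in the start regions and the only 1 kb window called lay at the Col1a2 start. Each line gives the 250 bases before the RefSeq start on GRCm38.p6, 5′ to 3′ on the strand of the gene, at chr6:4505368-4505617 (plus) for Col1a2, chr1:45311288-45311537 (plus) for Col3a1 and chr11:55420081-55420330 (minus) for Sparc. The tags are on mm9, and no position was carried over between the builds. Capitals mark matches on either strand to the AP-1 motif, spelled TGANTCA, to the CCAAT motif, to the TATA box, spelled TATAAA, to the GC box, spelled GGGCGG, to the TEAD motif, spelled GGAATG, or to the CArG box.
Col1a2: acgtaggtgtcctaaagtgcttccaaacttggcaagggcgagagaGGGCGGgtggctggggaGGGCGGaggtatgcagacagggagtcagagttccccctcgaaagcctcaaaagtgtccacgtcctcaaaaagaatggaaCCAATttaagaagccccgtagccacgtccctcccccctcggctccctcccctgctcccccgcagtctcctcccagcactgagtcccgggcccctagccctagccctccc
Col3a1: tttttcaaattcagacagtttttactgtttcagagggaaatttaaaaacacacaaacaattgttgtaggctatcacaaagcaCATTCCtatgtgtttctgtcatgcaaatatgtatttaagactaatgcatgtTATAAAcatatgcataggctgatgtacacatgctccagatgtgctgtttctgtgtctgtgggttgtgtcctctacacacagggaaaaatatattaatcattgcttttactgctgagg
Sparc: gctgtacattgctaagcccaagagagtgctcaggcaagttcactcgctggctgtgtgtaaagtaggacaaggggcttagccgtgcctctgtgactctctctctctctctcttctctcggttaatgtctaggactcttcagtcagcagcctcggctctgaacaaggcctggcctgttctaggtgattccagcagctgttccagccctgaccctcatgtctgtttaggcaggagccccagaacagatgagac
The sequences differ in composition, with 62% G or C at Col1a2, 35.2% at Col3a1 and 54% at Sparc, against a median of 52.4% over 32851 promoters. Col1a2 held 2 GC boxes, beginning at positions -205 and -188 from the start, and 1 CCAAT motif beginning at -109. Col3a1 held 1 match to the letters of the TATA box beginning at -117 and 1 to the TEAD motif on the other strand. All of these are matches of letters, and whether any works as such an element was not tested. Sparc held none of the 6 motifs in this window, and no matches overlapped. Of all promoters in the table, 32.7% held the GC box, 33.8% CCAAT, 12.4% the TATA box, 12.6% the TEAD motif, 6.75% the AP-1 motif and 1.47% the CArG box.

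Around the starts the summed profile had a single high bin. Over the 5 kb downstream of the start end the 6 genes together had 662 ChIP tags against 90, giving 3.12 (2.50 to 3.94). The 5 kb before it held 409 against 87, a ratio of 2.00 (1.58 to 2.54), and the 5 kb after it 369 against 97, a ratio of 1.61 (1.29 to 2.04). The high bin was above 1 at all 6 genes, from 1.95 at Col5a2 (78 tags against 17) to 5.57 at Col1a2 (105 against 8) and 5.89 at Col3a1 (125 against 9). It was the highest 5 kb bin at Col1a1, Col1a2, Col3a1 and Fn1 but not at Col5a2 and Sparc. At Fn1 this was a near tie, 2.45 (1.53 to 4.09) against 2.43 (1.27 to 5.11) from 10 to 15 kb inside. Col1a1 was at 3.23 (1.88 to 5.95), close to 3.02 (1.78 to 5.47) in the 5 kb before the start end. Col5a2 was at 2.59 (1.32 to 5.67) from 10 to 15 kb inside. Sparc was at 3.12 (1.66 to 6.51) from 10 to 5 kb upstream, against 2.52 (1.56 to 4.28) in the high bin. The summed ChIP density in the high bin was 4.13 times the autosomal mean and the input density 1.32 times. From 10 to 20 kb upstream the sum was still at 1.62 (1.23 to 2.15) and 1.74 (1.35 to 2.26) in 5 kb bins. Within the first 5 kb of the genes, ChIP tags per 1 kb peaked in the second kb with 171 over the 6 genes. Input tags fell from 27 there to 8 in the fifth kb, so the highest ratio in 1 kb steps, 4.67 (2.27 to 11.1), lay where the input was low and not where the ChIP was densest.

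**Figure D3:**
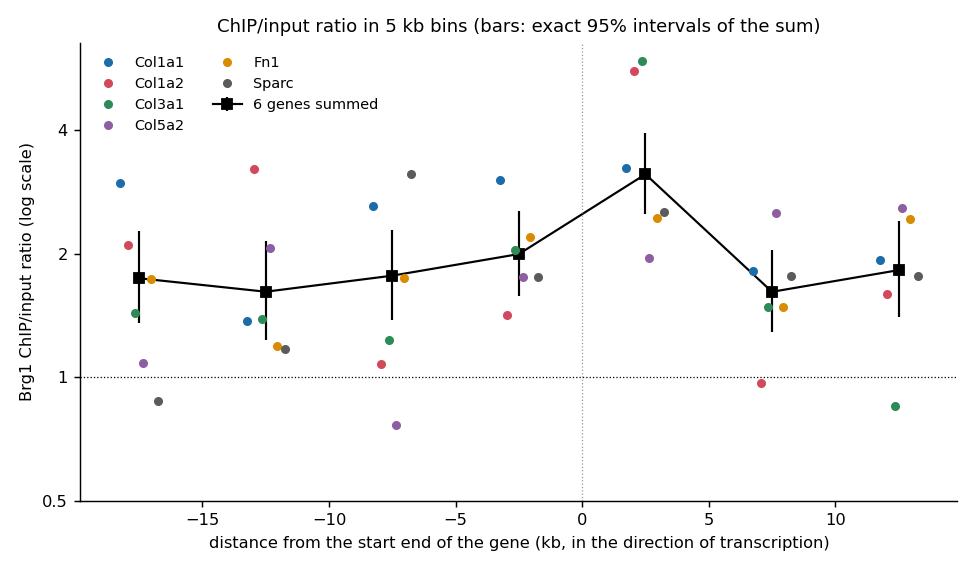
Brg1 ChIP/input ratio (log axis) in 5 kb bins by distance from the start end of the gene, with coloured points for single genes and black squares for the sum of the 6 genes with exact 95% intervals. The sum is highest, at 3.12, in the first 5 kb of the genes, and single genes scatter from 0.764 to 5.89.

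Genome-wide window tests placed called enrichment in every one of the 6 gene regions at 10 kb and in 1 of them at 1 kb. Windows were assigned by their centre. Each was given a two-sided exact binomial p, with Benjamini-Hochberg adjustment over all windows of the genome. A call needed an adjusted p under 0.05 together with a ratio of 1.5 or more, or of its inverse or less. Of 53 windows of 10 kb in the gene regions, 12 were called higher (22.6%), against 3.98% of all tested windows, and 0 lower, against 1.11%. Without adjustment 25 were higher and 0 lower, against 8.06% and 8.60%. The ratio was above 1 in 48 of the 53, against 38.8% of the genome, and their median was 1.48 against 0.898. Called windows numbered 4 of 16 at Col5a2, 2 of 5 at Col1a1, 2 of 8 at Col1a2, 2 of 7 at Col3a1, 1 of 11 at Fn1 and 1 of 6 at Sparc.

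**Figure D4:**
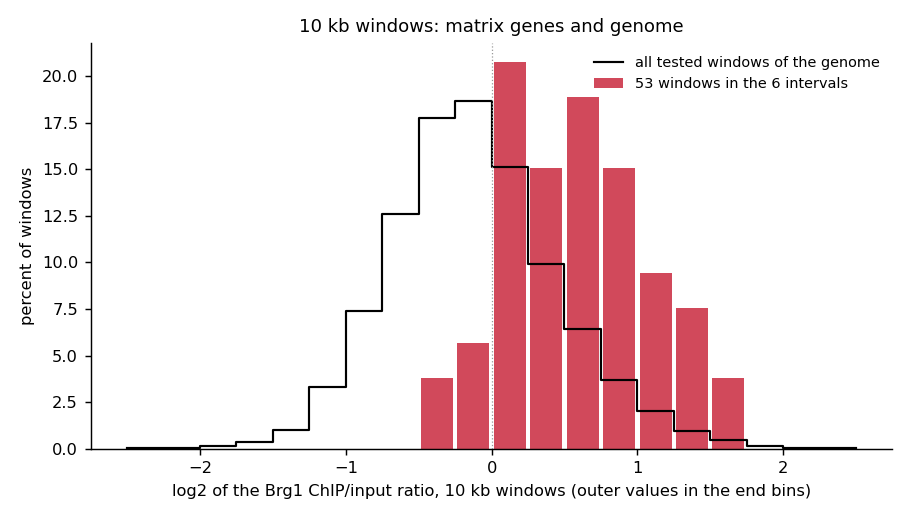
Distribution of the log2 Brg1 ChIP/input ratio over 10 kb windows, as percent of windows, with red bars for the 53 windows of the 6 gene regions and a black line for all 249877 tested windows. The red bars lie to the right of the line, with 5 windows of the gene regions below 0 on this axis.

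At the type I collagen genes the called windows lay at the start and upstream of it. At Col1a1 they joined into 1 stretch of 20 kb on chromosome 11, from 94780000 to 94799999, which runs from 17 kb upstream to 3 kb inside the gene and held 365 ChIP tags against 59 (ratio 2.63, 1.99 to 3.52). Its second window, at 94790000, had 242 against 31, a ratio of 3.31 (2.27 to 4.98, adjusted p = 6.11e-10, exact test). The first, at 94780000, was close to the threshold with 123 against 28 (ratio 1.86, adjusted p = 0.0464, exact test). It lost its call with 1 tag per position, at an adjusted p of 0.0658 in the same exact test, and under 4 other settings. Col1a2 had separate called windows on chromosome 6. The one at 4450000 to 4459999 spans the start and held 175 against 29, a ratio of 2.56 (1.72 to 3.94, adjusted p = 3.98e-05, exact test). The other, at 4430000 to 4439999, lies 15 to 25 kb upstream, in part beyond the region, and held 169 against 33, a ratio of 2.17 (1.49 to 3.26, adjusted p = 0.000981, exact test).

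The type III and type V collagen genes, Col3a1 and Col5a2, had called stretches of unlike width on the fixed 10 kb windows. The difference in width was not tested. At Col3a1 it covered 20 kb of chromosome 1, from 45360000 to 45379999, that is from 8 kb upstream to 12 kb inside the gene, with 258 ChIP tags against 41 (ratio 2.67, 1.92 to 3.81). The ChIP tags per 2 kb there were 55 in the first 2 kb of the gene, 44, 42 and 29 in the next bins, and 11 in the bin that began 8 kb inside. Col5a2, the longest of the 6 genes at 129 kb, was called over its first 30 kb, from 45530000 to 45559999, with 375 against 64 (ratio 2.49, 1.90 to 3.29). By ChIP tags its window at the start was the densest, with 155 against 30, a ratio of 2.19 (1.48 to 3.36, adjusted p = 0.0017, exact test). The ratio was higher 20 to 30 kb inside the gene, at 3.34 (1.94 to 6.15, adjusted p = 7.36e-05, exact test), where 118 ChIP tags stood against 15 input tags. A further called window lay 70 to 80 kb inside Col5a2, at 45480000 to 45489999, with 86 against 15 and a ratio of 2.43 (1.40 to 4.53, adjusted p = 0.0214, exact test). Input tags in both of these windows inside the gene were at 0.661 times the autosomal mean.

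At the glycoprotein genes a single 10 kb window was called at each start. The one at Fn1, on chromosome 1 at 71690000 to 71699999, covers the first 10 kb of the gene and held 170 ChIP tags against 35, a ratio of 2.06 (1.43 to 3.06, adjusted p = 0.00222, exact test). The one at Sparc, on chromosome 11 at 55230000 to 55239999, runs from 6 kb upstream to 4 kb inside the gene and held 183 against 34, a ratio of 2.28 (1.58 to 3.40, adjusted p = 0.000196, exact test). Outside the start region the Fn1 body held 714 tags against 199, a ratio of 1.52 (1.30 to 1.79).

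**Figure D5:**
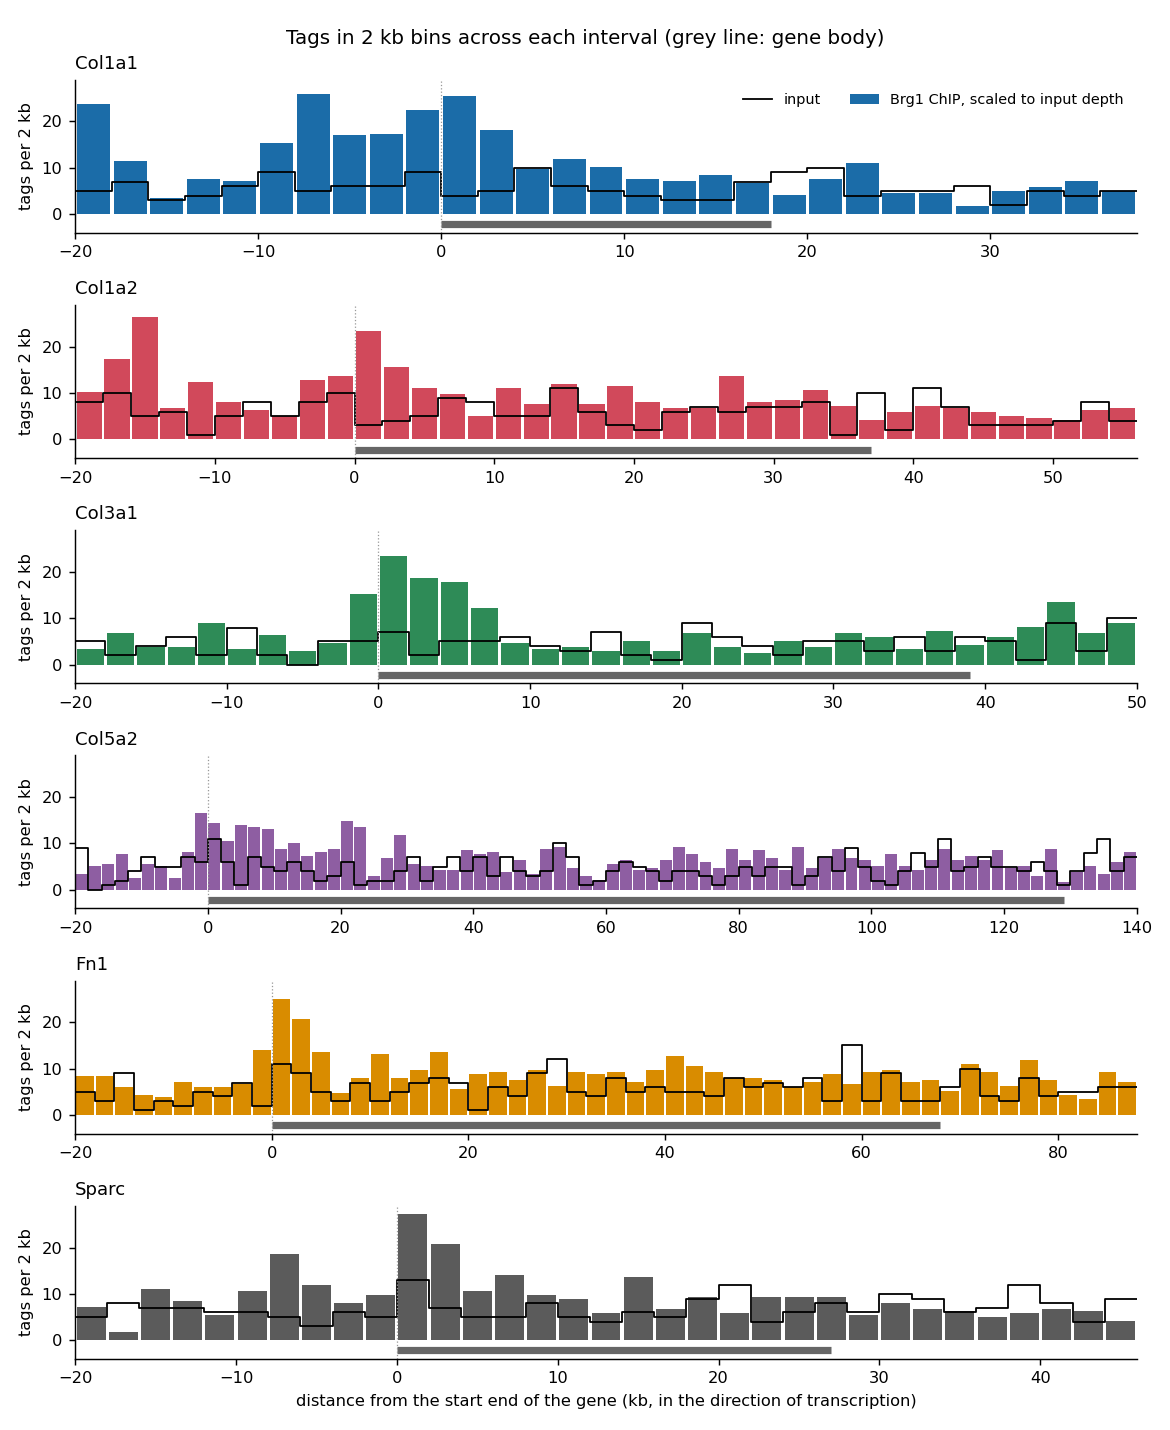
Tags per 2 kb bin by distance from the start end of each gene, with ChIP tags divided by 2.36 as bars and input tags as a black line, and the gene body as a grey line below. ChIP bars rise above the input around 0 kb in all 6 panels, and also 8 to 6 kb upstream at Col1a1 and Sparc and 16 to 14 kb upstream at Col1a2.

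Away from the start, 3 genes had a dense bin in the upstream flank. Bins of 2 kb were read from the profile after it was drawn and ranked by ChIP tags, so these values are given without a test. In the Col1a2 region the highest of 38 bins lay 16 to 14 kb upstream, with 62 ChIP tags against 5 input tags (ratio 5.26, 2.14 to 16.8). The first 2 kb of the gene held fewer ChIP tags, 55 against 3, but had the higher ratio, 7.78 (2.53 to 38.9). Transgenic work has placed a fibroblast enhancer far upstream of this gene. Whether the upstream bin holds that element was not tested. In the Col1a1 region the highest of 29 bins lay 8 to 6 kb upstream, with 61 against 5 (ratio 5.18, 2.10 to 16.5). The first 2 kb of the gene held 60 against 4, again with the higher ratio, 6.37 (2.36 to 24.1). The first bin of the region, 20 to 18 kb upstream, held 56 against 5 (ratio 4.75, 1.92 to 15.2). Between the 2 upstream bins, 16 to 14 kb upstream, only 8 ChIP tags and 3 input tags were found. At Sparc, 44 against 5 lay 8 to 6 kb upstream (ratio 3.73, 1.48 to 12.1), below the 64 against 13 in the first 2 kb of the gene. At Col3a1, Col5a2 and Fn1 the highest bin between 20 and 6 kb upstream held 21, 18 and 20 ChIP tags, against 55, 39 and 59 in the highest bin of their regions. Of autosomal 2 kb windows, 0.305% held at least 62 ChIP tags and 1.75% at least 39. These are shares of single windows by ChIP tags alone. The bins set beside them were the highest of 38 at Col1a2 and of 80 at Col5a2, so the shares overstate how rare such bins are.

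At 1 kb, depth limited the test, since a window without input tags needed at least 27 ChIP tags to be called. Of 342 windows tested in the 6 gene regions, 1 was called higher (0.292%, against 0.380% of the genome) and 0 lower (against 0.00666%), a share near the background. Without adjustment 37 were higher (against 5.98% of the genome) and 0 lower (against 1.70%). The called window lay on chromosome 6 at 4455000 to 4455999, the first kb of the Col1a2 interval, with 30 ChIP tags and 0 input tags. Set against a floor of 3 input tags per window, ChIP was 4.24-fold higher, a value that depends on the floor chosen and is not a lower bound. The lower end of the exact 95% interval was 3.24 (adjusted p = 0.0247, exact test). Its 30 ChIP tags fell on 29 positions, 16 of them on the plus strand and 14 on the minus, and 14 lay within 200 bp. The call was lost when windows were moved by 500 bp, when the input was not allowed below its mean over 10 kb and when 1 tag per strand was kept within 5 bp. The window with the highest lower bound in each other region was not called. It lay 4 to 5 kb inside Col3a1 (26 tags against 0, adjusted p = 0.0504, exact test), 1 to 2 kb inside Col1a1 (35 against 2, adjusted p = 0.0828, exact test) and 2 to 3 kb inside Sparc (36 against 3, adjusted p = 0.147, exact test). At Col5a2 it lay 4 to 5 kb inside the gene and at Fn1 in the kb just before the start end, each with 19 against 0 (adjusted p = 0.177, exact test). All 6 of these windows thus lay within 5 kb of the start end.

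In the RefSeq table of GRCm38 the protein-coding neighbours upstream are Gm11544 at Col1a1, Bet1 at Col1a2, Gulp1 at Col3a1, Wdr75 at Col5a2, Mreg at Fn1 and Atox1 at Sparc. Whether any of them reaches into the flanks on mm9 was not tested. The 200 kb upstream of the Col5a2 region, on the side of Wdr75, was the side given above at 1.53, and that upstream of Fn1 was at 1.39 (1.27 to 1.53). Upstream of Col1a1 and Col3a1 it was at 0.979 (0.876 to 1.10) and 0.930 (0.818 to 1.06).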

How the data were processed

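The deposited files list raw counts of tags by chromosome, strand and position, with no normalization, and 1 file per library. Reads were placed with Bowtie on mm9, per the submitters' processing notes. Bowtie's version, its settings and the filter on repeated tags are not given in the sources used here. Each tag was moved 75 bp along its strand. ChIP/input ratios were scaled by autosomal totals and given exact conditional (Clopper-Pearson) 95% intervals. Ratios of ratios have exact conditional intervals from the 2 × 2 counts. Windows of 1 kb and 10 kb with at least 10 tags in both libraries together were tested over the genome, with the two-sided p as the smaller tail counted on both sides. The files do not say whether positions start at 0 or 1, so coordinates may be off by 1 bp.

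Strands and starts follow the ends of the preset intervals; a promoter table gave the same strand for 3 genes. Named are all 6 genes, every merged called window and the best 1 kb window of each gene. The members and lists were chosen with earlier results of these data known. Other matrix genes need an mm9 annotation and are not analysed here. On simulated windows raised 2-fold, 4-fold and 8-fold, the test called 0%, 10% and 85% at 1 kb (753844 windows). At 10 kb (249641 windows) it called 27.5%, 98% and 100%. Only 200 windows were raised at each level, whereas 2684 windows of 1 kb and 9952 of 10 kb were called higher in the data. The adjusted cutoff was therefore stricter in the simulation, and these rates do not carry over directly to the data. Alternatives were other scalings, filters on repeated tags, unmoved tags, other windows, minimums and widths. Analyses used Python 3.11.15, numpy 2.4.6, scipy 1.17.1, pandas 2.3.3 and matplotlib 3.10.9.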

Additional observations from a re-analysis of the deposited data

How the results depend on the processing

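The ratios of the 6 gene regions kept a 95% interval above 1 under all 8 alternatives tried. Only Sparc moved beyond its interval, to 1.66 without widening and 1.61 with widening by 10 kb. No ratio changed direction. The start region of Col5a2 excluded 1 with background scaling, as a 5 kb region and with 2 kb centred on the start. In the last setting Col3a1 and Sparc no longer did, so that 4 of 6 genes excluded 1. With flanks of up to 10 kb, upstream exceeded downstream beyond counting error at 2 genes in place of 4, and with 1 tag per strand within 5 bp at 3. The 12 called 10 kb windows became 19 of 53 with background scaling, against 6.10% of the genome. The scale of that setting is 0.900 times the autosomal one. Windows of 5 kb gave 11 of 109, against 2.15% of the genome. The other settings gave 11 to 13, against 2.93% to 4.13%. Each setting had a call in all 6 regions. The 1 called 1 kb window of 342 tested became 2 with scaling by all chromosomes (against 0.395% of the genome) or by the same chromosome (0.376%). The other two-sided p also gave 2 (0.473%). Unmoved tags gave 3 of 351 (0.378%), background scaling 6 of 342 (0.899%) and 2 kb windows 6 of 265 (0.802%). A minimum of 20 tags gave 11 of 64 tested (against 19.4% of the genome). The count became 0 with 500 bp windows, no minimum, windows starting 500 bp later, 1 tag per strand within 5 bp, or the input held at its mean over 10 kb. In these settings 0.00376% to 0.382% of the genome was called. Added after the data were seen were the comparisons of upstream with downstream flank, first with last part of the body, start region with the rest of the body and region with surroundings, the profiles around the start, the other two-sided p, the moved windows, the flanks of 10 kb and the 100 kb surroundings. No paired analysis was possible because only 1 library represents a group. At 2.27 input tags per kb, low input counts limit the start regions (5 to 16 tags) and the 1 kb windows.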

Other observations

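In the gene regions, the share of listed ChIP positions with 2 tags was 0.721% at Fn1, 0.769% at Col5a2, 1.18% at Col1a2, 1.22% at Col3a1, 1.65% at Col1a1 and 1.81% at Sparc. The input had no position with 2 tags there. Plus-strand tags made up 47.3% to 51.5% of the ChIP tags of a region.

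The last 12 kb of the Col3a1 region, between this gene and the end of Col5a2, held 109 ChIP tags against 32 (ratio 1.45, 0.967 to 2.22). On the other side of the midpoint, the flank behind Col5a2 held 67 against 37, a ratio of 0.768 (0.507 to 1.18). The 2 collagen genes face each other with their downstream ends. The ratio was at 2.67 in the called stretch at the start of Col3a1 and at 2.49 in that of Col5a2.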
